A study of Mus musculus with 24 samples.

Results

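Genes that carry, convert and sense vitamin A were followed in mouse livers with nonalcoholic steatohepatitis (NASH), in which fat build-up in the liver is joined by inflammation and cell injury. The set holds 8 genes, taken by symbol from the 14293 rows of the deposited expression table: Rbp4, Bco1, Retsat, Rdh16, Dhrs3, Aldh1a1, Cyp26a1 and Rara. All 8 occurred on 1 row each and passed the filter on low values. The table covers 24 liver samples in 3 groups of 8, which received vehicle, vutiglabridin (a synthetic relative of the licorice flavonoid glabridin) or semaglutide (an agonist of the GLP-1 receptor). Beyond liver and treatment, the labels state no disease model, diet, strain, sex, age, dose or duration. They also do not say whether the samples of a group are separate animals, so the p-values below speak to sample-to-sample spread, which may be technical.

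The liver takes up most dietary vitamin A and keeps it as retinyl ester in stellate cells. Hepatocytes release retinol into blood bound to its carrier, the product of Rbp4. Within cells, retinol is oxidised to retinal by retinol dehydrogenases such as Rdh16, and retinal is oxidised to retinoic acid by retinal dehydrogenases such as Aldh1a1. Dhrs3 runs the first step backwards, and Cyp26a1 hydroxylates retinoic acid and so clears it. Bco1 cleaves carotene from the diet into retinal, and Retsat saturates retinol to dihydroretinol. Retinoic acid acts through receptors such as Rara, which pair with retinoid X receptors on DNA. Cyp26a1 and Dhrs3 are known to be induced by retinoic acid.

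Retinoid receptors bind pairs of short core motifs in the same orientation, called direct repeats. Receptors for retinoic acid are known for repeats with a gap of 5 or 2 bases, and PPAR receptors, which also pair with retinoid X receptors, for a gap of 1. The RefSeq promoter table (GRCm38.p6) held 15 windows of 300 bases for the 8 genes, each from 250 bases before to 50 after an annotated start. Both strands were searched for exact repeats with gaps of 5, 2 or 1 bases. With a gap of 5, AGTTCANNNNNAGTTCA occurred in 8 of all 32851 windows (0.0244%) and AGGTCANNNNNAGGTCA in 3 (0.0091%). With a gap of 2, AGTTCANNAGTTCA and AGGTCANNAGGTCA occurred in 3 windows each (0.0091%). With a gap of 1, AGTTCANAGTTCA occurred in 4 windows (0.0122%) and AGGTCANAGGTCA in 13 (0.0396%). Of the 15 windows, 1 held a repeat with a gap of 5, that of Cyp26a1, and 1 held a repeat with a gap of 1, that of Bco1.

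The stretches that hold these 2 matches are shown because they are the retinoid-type and PPAR-type repeats next to members of the set. Both are on the plus strand, 5′ to 3′, with the repeat in capitals, which reads on the opposite strand as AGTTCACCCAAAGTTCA for Cyp26a1 and AGGTCAAAGGTCA for Bco1. They lie at chr19:37697676-37697795 and chr8:117095733-117095852.
Cyp26a1: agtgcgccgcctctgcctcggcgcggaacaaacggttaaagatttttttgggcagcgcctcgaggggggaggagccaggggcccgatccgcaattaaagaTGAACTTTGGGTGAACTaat
Bco1: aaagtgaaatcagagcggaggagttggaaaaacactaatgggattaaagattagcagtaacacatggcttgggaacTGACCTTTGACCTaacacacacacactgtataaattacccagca
The Cyp26a1 repeat ends 16 bases before the RefSeq start and the Bco1 repeat 44 bases before its own. A letter match of this kind is a description only.

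Levels are deposited FPKM values, fragment counts scaled to gene length and library size, so genes can be ranked by them. Rbp4 was among the most abundant transcripts of these livers, at rank 19 of 14293 genes by mean level in vehicle, 18 in vutiglabridin and 17 in semaglutide. In vehicle the order of mean levels was Rbp4 (2124 FPKM), Aldh1a1 (305), Retsat (96.6), Dhrs3 (41.7), Rdh16 (28.9), Rara (6.01), Cyp26a1 (4.29) and Bco1 (3.05). Neighbours in that order did not overlap in any vehicle sample down to Rara. The ranges of Rara and Cyp26a1, and those of Cyp26a1 and Bco1, did overlap. Dhrs3 and Rdh16 also overlapped in both drug groups, and the mean of Cyp26a1 passed that of Rara in vutiglabridin (7.02 and 6.88 FPKM).

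**Figure D1:**
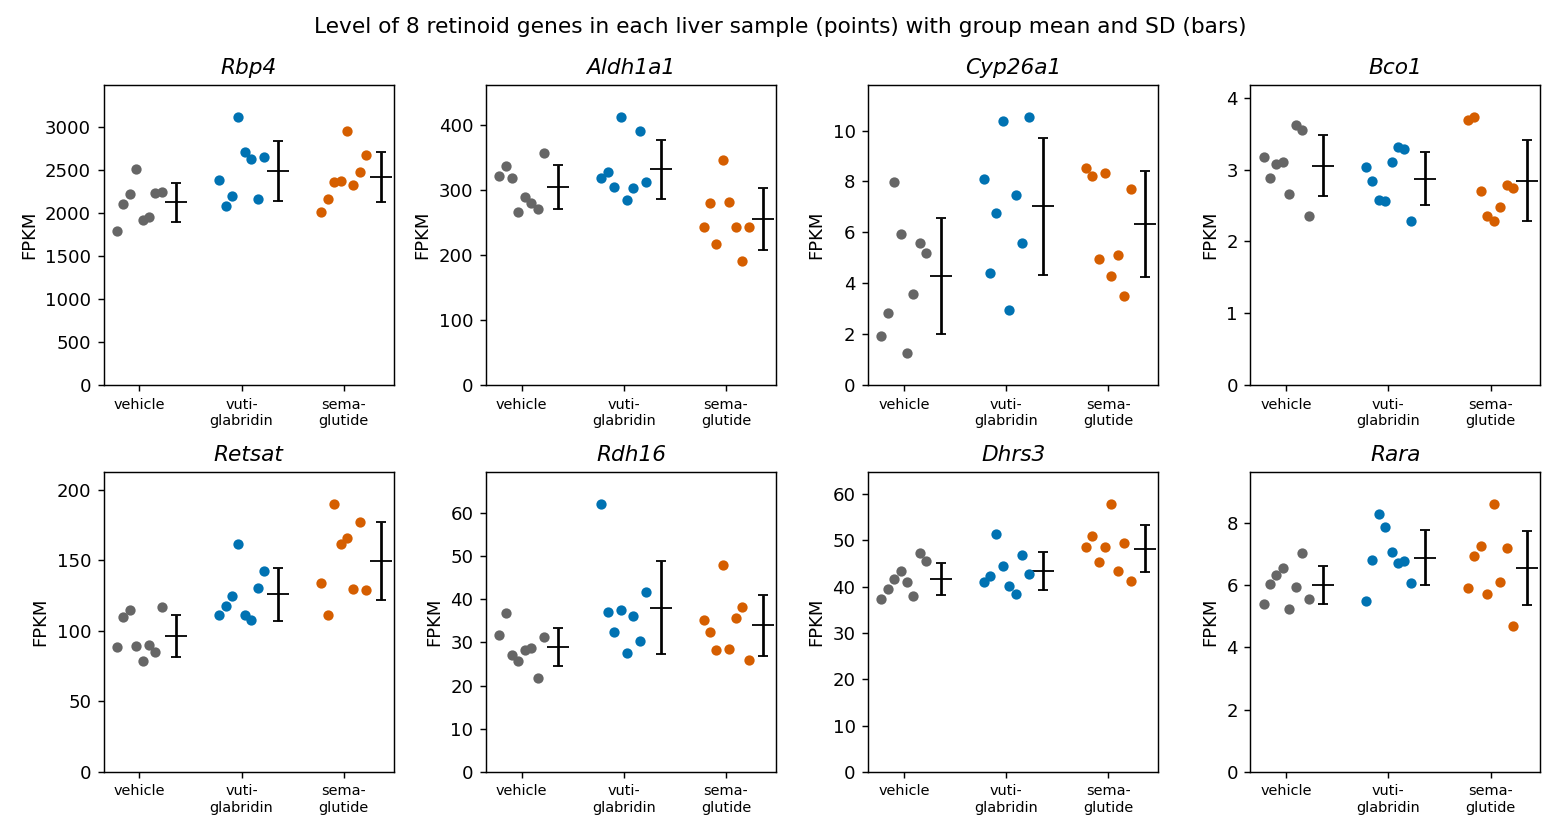
Level of each of the 8 genes in FPKM (linear axes from 0) in every sample, 8 points per group, with the group mean and SD beside them. Retsat is higher in both drug groups than in vehicle, and Aldh1a1 is lowest in semaglutide. Relative to its group mean, Cyp26a1 scatters most in vehicle, from 1.26 to 7.98 FPKM.

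The low values of the table lie on steps that single fragments make. Depths implied by these steps, in M (mega) fragments, were 9.30 to 12.4 for semaglutide libraries, 5.95 to 15.3 for those of vutiglabridin and 12 to 19.9 for those of vehicle. The shallowest was vutiglabridin replicate 7. Behind a single value stood about 30 to 302 fragments for Cyp26a1 and 50 to 179 for Bco1, against 17249 to 59573 for Rbp4. All 8 semaglutide columns carry a trailing space in every cell and no other column does, so any separate handling of these samples cannot be told apart from the drug. Totals of FPKM were higher in vutiglabridin (368614 ± 14580, SD, n = 8) than in vehicle (330352 ± 14299). When every sample was rescaled to one total (TPM), the median log2 difference over all tested genes between vutiglabridin and vehicle went from 0.01 to −0.13.

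Vutiglabridin against vehicle addresses the response of the NASH liver to that drug. Retsat rose and no other gene of the 8 passed the test. Positive differences were seen for 7 of the 8, beside 6204 of all 11562 tested genes. Of the 8 genes, 1 was called higher and 0 lower, where 6.53% of all 11562 tested genes were called higher, 8.78% lower and 15.3% in either direction (limma, Benjamini-Hochberg adjusted p under 0.05 over all tested genes). The median log2 difference of the 8 genes was 0.20, against 0.01 for all tested genes. Under TPM 0 of the 8 were called, the calls over all genes turned from 755 higher and 1015 lower to 233 higher and 2731 lower, and the differences of Aldh1a1 and Dhrs3 turned negative.

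For semaglutide against vehicle, Retsat and Dhrs3 rose and Aldh1a1 fell. That is 2 of 8 called higher and 1 lower, where 14.3% of all tested genes were called higher, 12.7% lower and 27.0% in either direction. The median of the 8 differences was 0.19, against −0.01 for all tested genes. TPM scaling changed the split over all genes from 1650 higher and 1474 lower to 1202 higher and 2116 lower. With so few genes, 1 of 8 and 3 of 8 calls are near these background shares, and the 2 comparisons share the vehicle samples.

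Between the drugs, Aldh1a1 was higher in vutiglabridin. It was the 1 call of 8, with 0 lower, where 11.9% of all genes were called higher in vutiglabridin, 12.6% lower and 24.4% in either direction. The median of the 8 differences was 0.05, beside 0.01 for all tested genes. Under TPM the split over all genes changed from 1372 higher and 1454 lower to 596 higher and 2264 lower.

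**Figure D2:**
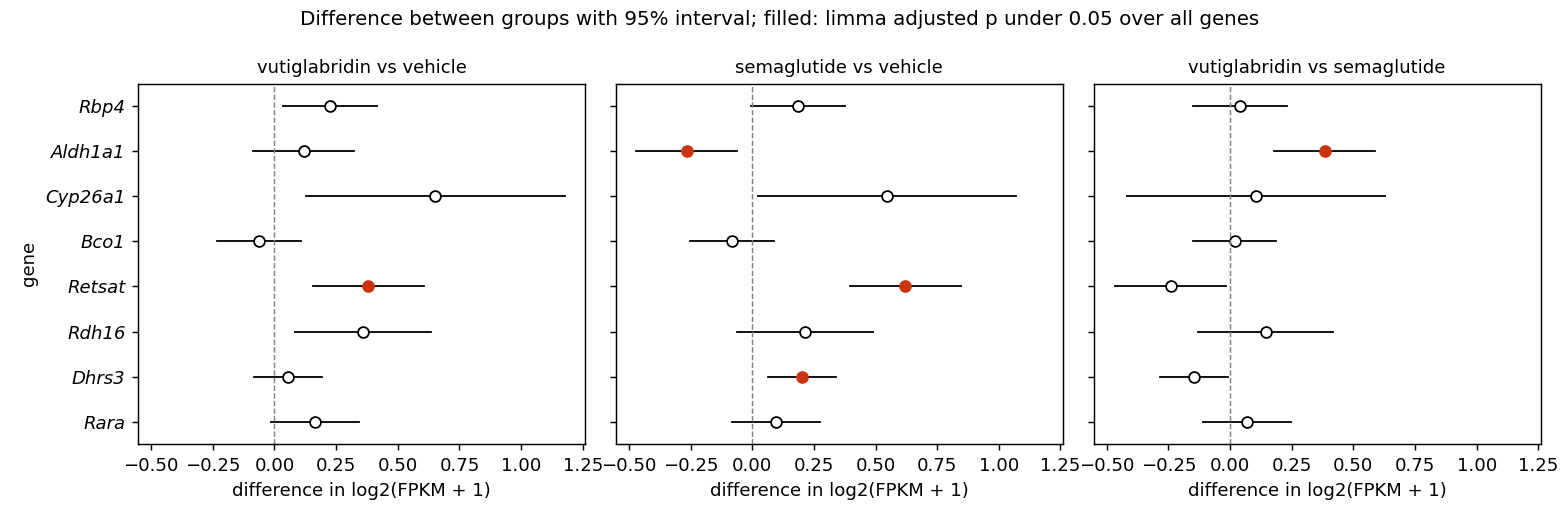
Difference between group means of log2(FPKM + 1) for the 8 genes (points) with 95% intervals (lines), in 3 panels, one per comparison. Filled points passed the adjusted threshold over all genes: Retsat at 0.38 and 0.62 against vehicle, Dhrs3 at 0.20 and Aldh1a1 at −0.27 under semaglutide, and Aldh1a1 at 0.38 between the drugs.

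Retsat, the retinol saturase, showed the largest called difference of the set. Vehicle samples ran from 78.7 to 117 FPKM with a median of 89.5, vutiglabridin samples from 107 to 162 with a median of 121, and semaglutide samples from 111 to 190 with a median of 148. All 8 samples of each drug group lay above the vehicle mean, and 5 vutiglabridin and 7 semaglutide samples lay above the highest vehicle sample. The log2 change was 0.38 ± 0.11 (SE) with vutiglabridin (limma adjusted p = 0.0190) and 0.62 ± 0.11 with semaglutide (adjusted p = 0.000159). The semaglutide call held in all 13 alternative settings (adjusted p up to 0.0112) and with any 1 sample left out. The vutiglabridin call held with any 1 sample left out (0.0109 to 0.0432) but was lost under TPM (0.22, adjusted p = 0.0967) and quantile normalization (0.21, adjusted p = 0.174). Relative to the median of all genes, the vutiglabridin change was 0.37 as deposited, 0.35 under TPM and 0.18 under quantile normalization. Between the drugs Retsat differed by −0.24 (95% interval −0.47 to −0.02, adjusted p = 0.108). That difference passed under TPM (−0.34, adjusted p = 0.0132), quantile normalization (−0.41, 0.00364), after removal of GC and length trends (−0.30, 0.0396) and without semaglutide replicate 2 (0.0463).

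Rbp4, the retinol carrier of plasma, was at 1795 to 2510 FPKM in vehicle (median 2164), 2077 to 3115 in vutiglabridin (median 2507) and 2008 to 2958 in semaglutide (median 2369). In each drug group 7 of 8 samples lay above the vehicle mean, and the ranges overlapped. The log2 differences from vehicle were 0.23 ± 0.09 with vutiglabridin (adjusted p = 0.1005) and 0.19 ± 0.09 with semaglutide (adjusted p = 0.141). Neither passed as deposited, and both passed once trends with GC content and gene length were removed from each library (0.24, adjusted p = 0.0178, and 0.31, adjusted p = 0.00201). The vutiglabridin difference was smaller under other scalings, 0.07 under TPM and 0.08 under quantile normalization (adjusted p = 0.684 for the second). The semaglutide difference was 0.13 under TPM (adjusted p = 0.252) and 0.27 under quantile normalization. Transthyretin (Ttr), the protein that travels in plasma with the Rbp4 product, was at 3522 ± 265 FPKM in vehicle, 3801 ± 493 in vutiglabridin and 3970 ± 544 in semaglutide (SD, n = 8). Its differences from vehicle, 0.10 and 0.16, did not pass (adjusted p = 0.495 and 0.189), and the first was −0.05 under TPM.

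Bco1, the carotene oxygenase, was low, and its ranges overlapped across the groups. Its lowest, median and highest values were 2.36, 3.09 and 3.62 FPKM in vehicle, 2.28, 2.94 and 3.31 in vutiglabridin, and 2.28, 2.72 and 3.73 in semaglutide. Differences from vehicle were −0.06 (95% interval −0.23 to 0.11, adjusted p = 0.666) and −0.08 (−0.25 to 0.09, adjusted p = 0.506). Under TPM the differences were −0.22 (adjusted p = 0.141) and −0.15 (adjusted p = 0.314).

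Rdh16, which oxidises retinol to retinal, ran from 21.9 to 36.9 FPKM in vehicle (median 28.5), from 27.5 to 62.2 in vutiglabridin (median 36.6) and from 25.9 to 48.0 in semaglutide (median 33.8). Vutiglabridin replicate 1 stood highest, and the next of its group was at 41.7. The difference of vutiglabridin from vehicle was 0.36 ± 0.13 with 7 of 8 samples above the vehicle mean, and it did not pass (adjusted p = 0.0699). It passed without vehicle replicate 2 (0.0477) or vutiglabridin replicate 5 (0.0351). It was smaller without vutiglabridin replicate 1 (0.25, adjusted p = 0.155), under TPM (0.21, adjusted p = 0.252) and under quantile normalization (0.27). Semaglutide differed by 0.21 ± 0.13 (adjusted p = 0.249). Of the stretches of 101 bases (one read) in Rdh16 transcripts, 7.69% also occur in another gene, mostly in the pseudogene Rdh18-ps, which overlaps it on the same strand, so a part of its reads could be assigned to either.

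Close relatives of Rdh16 behaved differently from one another. Rdh16f2 rose from 31.2 ± 4.71 FPKM in vehicle to 59.2 ± 16.7 in vutiglabridin (0.87 ± 0.16, adjusted p = 0.000523) and to 47.4 ± 13.2 in semaglutide (0.56 ± 0.16, adjusted p = 0.00886). Its vehicle samples ended at 39.4 and its vutiglabridin samples began at 36.5, so the ranges overlapped slightly. Rdh9 was at 2.85 ± 0.755, 2.45 ± 0.473 and 3.54 ± 1.00 FPKM in vehicle, vutiglabridin and semaglutide. It passed between the drugs (−0.38, adjusted p = 0.0323) and not against vehicle. That call was lost under quantile normalization (0.059) and without vutiglabridin replicate 1 (0.0536) or 5 (0.0699) or semaglutide replicate 7 (0.0717) or 8 (0.0766). Rdh1 was below the filter, with group means of 0.0600 to 0.0912 FPKM.

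Aldh1a1, which makes retinoic acid from retinal, ran from 265 to 357 FPKM in vehicle (median 304), from 285 to 412 in vutiglabridin (median 315) and from 191 to 346 in semaglutide (median 243). Of the semaglutide samples 5 lay below every vehicle sample, while replicate 4 lay near the top of the vehicle range. The change with semaglutide was −0.27 ± 0.10 (adjusted p = 0.0487), which sits at the threshold. The exact permutation test gave a two-sided p = 0.0255 (0.0874 adjusted over 24 tests). The call was lost in 15 of the 24 fits that left out a sample: vehicle replicates 1, 2, 3, 5 and 8, vutiglabridin replicates 1, 2, 3, 6 and 8, and semaglutide replicates 1, 3, 6, 7 and 8 (adjusted p = 0.0521 to 0.106). It was also lost with no filter (0.0572), median centring (0.0576) and only the 2 groups fitted (0.0555). Vutiglabridin differed from vehicle by 0.12 (95% interval −0.09 to 0.32, adjusted p = 0.474).

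The difference between the drugs was firmer for this gene. Aldh1a1 was higher in vutiglabridin by 0.38 ± 0.10 (limma adjusted p = 0.00627), with all 8 vutiglabridin samples above the semaglutide mean. The exact permutation test gave p = 0.00466 (0.0373 adjusted over 24 tests). The difference is followed here through the other settings. It passed with any 1 sample left out (adjusted p up to 0.0162) and missed the threshold under quantile normalization (0.22, adjusted p = 0.0596). The neighbouring relative Aldh1a7, a closely similar aldehyde dehydrogenase, was also lowest in semaglutide, at 174 ± 18.3, 175 ± 27.7 and 126 ± 27.3 FPKM in vehicle, vutiglabridin and semaglutide. It fell with semaglutide by 0.49 on the log2 scale (adjusted p = 0.00191) and was higher in vutiglabridin than in semaglutide by 0.49 (adjusted p = 0.00230). No stretch of 101 bases of Aldh1a1 transcripts occurs in another annotated gene, so whole single reads do not match both. Aox1, an aldehyde oxidase that can use retinal, also fell with semaglutide (−0.26, adjusted p = 0.0147) and differed between the drugs (0.47, adjusted p = 0.000106), from 15.3 ± 1.14 FPKM in vehicle to 17.8 ± 0.805 in vutiglabridin and 12.7 ± 2.28 in semaglutide.

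Dhrs3, which returns retinal to retinol, had narrow groups. It ran from 37.4 to 47.4 FPKM in vehicle (median 41.3), from 38.3 to 51.4 in vutiglabridin (median 42.5) and from 41.3 to 57.9 in semaglutide (median 48.6). Of the semaglutide samples 7 of 8 lay above the vehicle mean and 5 above every vehicle sample. The rise with semaglutide was 0.20 ± 0.07 (adjusted p = 0.0287). That call was lost under TPM (0.15, adjusted p = 0.0895), in the exact permutation test (adjusted p = 0.0578) and without vehicle replicates 1, 2 or 6 or semaglutide replicates 2 or 5 (0.0518 to 0.0594). Vutiglabridin differed from vehicle by 0.06 (95% interval −0.08 to 0.19, adjusted p = 0.642), and by −0.10 under TPM. The drugs differed by −0.15 (adjusted p = 0.115), which passed under TPM (−0.25, 0.00659), quantile normalization (−0.24, 0.0109), without GC and length trends (−0.23, 0.00790) and without vutiglabridin replicate 3 (0.0470).

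Cyp26a1, the hydroxylase that clears retinoic acid and whose promoter holds the repeat shown above, was the most variable gene of the set. Its lowest, median and highest values were 1.26, 4.39 and 7.98 FPKM in vehicle, 2.93, 7.13 and 10.5 in vutiglabridin, and 3.48, 6.41 and 8.52 in semaglutide. The highest vehicle sample was 6.33 times the lowest, while for the other 7 genes this ratio was 1.27 to 1.69. The within-group SD of its log2 values was 0.56, rank 99 of 11562 tested genes, and only 1 of the 500 genes nearest to it in mean level had a larger one. Vutiglabridin samples averaged 1.64 times the vehicle mean and semaglutide samples 1.48 times, with 7 and 6 of 8 samples above it.

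Neither difference of Cyp26a1 passed. The log2 differences were 0.65 ± 0.25 (95% interval 0.13 to 1.18, adjusted p = 0.0831) with vutiglabridin and 0.55 ± 0.25 (0.02 to 1.07, adjusted p = 0.113) with semaglutide. The vutiglabridin difference passed without vehicle replicate 3, the highest vehicle sample (0.78, adjusted p = 0.0383), or without vutiglabridin replicate 5, the lowest of its group (0.79, adjusted p = 0.0324). Between the drugs the difference was 0.11 with a wide interval, −0.42 to 0.63 (adjusted p = 0.799), and that interval includes differences nearly as large as the one from vehicle.

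Cyp26b1, a second retinoic acid hydroxylase, was the gene whose values followed those of Cyp26a1 most closely. After removal of the group means, Pearson's r over the 24 samples was 0.743 (Spearman's rho 0.770), the highest of 11561 candidates, so no p is given. Within vehicle, vutiglabridin and semaglutide r was 0.871, 0.637 and 0.763. Vehicle replicate 3 was highest for both genes, at 7.98 and 3.21 FPKM, and vutiglabridin replicate 5 was lowest of its group for both, at 2.93 and 0.150. The group means of Cyp26b1 were nearly equal, at 1.47 ± 0.834, 1.47 ± 0.868 and 1.54 ± 0.719 FPKM, and its differences from vehicle were −0.02 and 0.06 (adjusted p = 0.956 and 0.866). The first turned positive under quantile normalization (0.06).

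**Figure D3:**
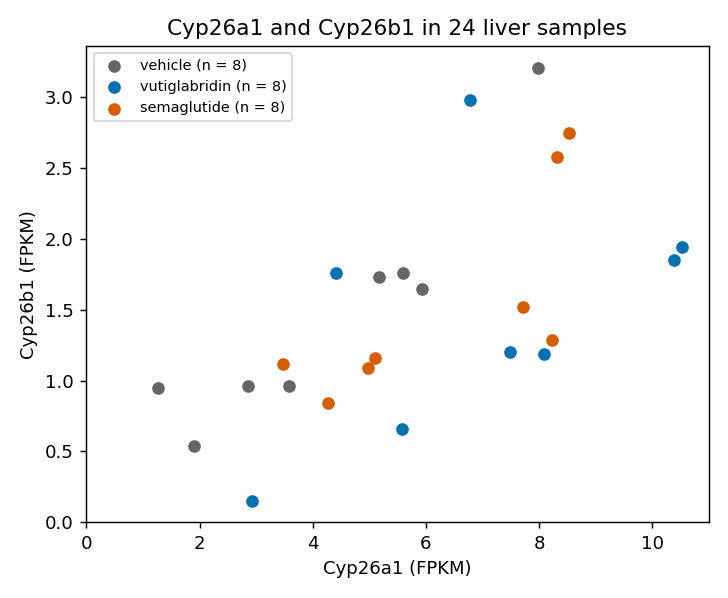
Level of Cyp26b1 against Cyp26a1 in FPKM, 1 point per liver sample, coloured by group (8 each). High samples for one gene tend to be high for the other within each group, as for vehicle replicate 3 at 7.98 and 3.21 FPKM.

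Rara, the retinoic acid receptor alpha, ran from 5.24 to 7.04 FPKM in vehicle (median 6.00), from 5.50 to 8.27 in vutiglabridin (median 6.79) and from 4.68 to 8.61 in semaglutide (median 6.52). Its differences from vehicle, 0.17 ± 0.09 and 0.10 ± 0.09, did not pass (adjusted p = 0.213 and 0.445). Both passed once GC and length trends were removed (0.21, adjusted p = 0.0242, and 0.17, adjusted p = 0.0484). Under TPM they shrank to 0.03 (adjusted p = 0.837) and 0.05 (adjusted p = 0.731). Rxra, the retinoid X receptor alpha that partners it, rose from 83.2 ± 6.45 FPKM in vehicle to 100.2 ± 10.3 in vutiglabridin (0.26 ± 0.07, adjusted p = 0.0108) and to 101 ± 9.75 in semaglutide (0.27 ± 0.07, adjusted p = 0.00435). The vutiglabridin call of Rxra was lost under TPM (0.11, adjusted p = 0.201) and quantile normalization (0.11, adjusted p = 0.262).

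A wider list of 57 other retinoid genes was also counted, of which 49 were in the table and 46 were tested. With vutiglabridin 5 rose, 2 fell and 39 did not pass, with a median of 0.08, where 6.53% of all tested genes were called higher and 8.78% lower. With TPM scaling 2 rose and 6 fell. The 6 lowest p-values belonged to Rdh16f2 and Rxra, given above, and to Rdh11, Aldh8a1, Tgm2 and Aldh1a2. Rdh11, a retinal reductase, rose from 9.76 ± 2.41 to 17.9 ± 6.08 FPKM (0.79 ± 0.19, adjusted p = 0.00640). Aldh8a1, an aldehyde dehydrogenase that accepts retinal, rose from 68.5 ± 4.04 to 82.9 ± 9.59 (0.26 ± 0.06, adjusted p = 0.00631), a call lost under TPM (0.180) and quantile normalization (0.175). Tgm2, a transglutaminase known to be induced by retinoic acid, fell from 76.1 ± 10.1 to 53.2 ± 10.1 FPKM (−0.52 ± 0.11, adjusted p = 0.00163). Aldh1a2, a retinal dehydrogenase of mesenchymal cells, was low, with a median of 0.540 FPKM in vehicle and 0.170 in vutiglabridin (−0.49 ± 0.13, adjusted p = 0.0149, and 0.0674 under quantile normalization). Its vutiglabridin values, 0.110 to 0.370 FPKM, all lay below the filter of 0.5 FPKM. It was tested only through the other groups, with vehicle values from 0.230 to 2.38 FPKM, so its call is a description only. It is 1 of the 2 counted as fallen. With the filter set to a mean of 1 FPKM or more, 44 of the list were tested, 5 rose and 1 fell.

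With semaglutide 8 of the 46 rose, 6 fell and 32 did not pass, with a median of 0.04. These counts are near the shares over all tested genes, 14.3% higher and 12.7% lower. TPM scaling gave 7 and 7. Cofactors of nuclear receptors were among the lowest p-values. Nrip1, a corepressor, rose from 1.13 ± 0.139 to 2.04 ± 0.160 FPKM (0.52 ± 0.06, adjusted p = 2.62e-06), and its semaglutide samples, from 1.83 up, lay above all samples of both other groups. Ncoa2, a coactivator, and Ncor1, a corepressor, rose by 0.60 and 0.37 (adjusted p = 1.12e-05 and 0.000355). Lrp1, a receptor that takes up retinoid-carrying chylomicron remnants, rose from 44.6 ± 4.92 to 62.9 ± 8.80 FPKM (0.48, adjusted p = 0.000219). Rarres1, named for its induction by a synthetic retinoid, fell from 58.8 ± 9.39 to 31.8 ± 14.2 FPKM (−0.96 ± 0.18, adjusted p = 0.000404). Tgm2 fell here as well (−0.39, adjusted p = 0.00747).

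Between the drugs 8 of the 46 were higher in vutiglabridin, 6 were lower and 32 did not pass, with a median of −0.03. Over all tested genes 11.9% were higher and 12.6% lower. Under TPM 4 of the 46 were higher and 11 lower. The lowest p-values belonged to Nrip1 (−0.55, adjusted p = 1.23e-06), Rarres1 (1.22, 3.80e-05), Ncoa2 (−0.51, 9.43e-05), Aox1, Ces1g and Aldh1a7. Ces1g, a carboxylesterase of hepatocytes, was at 101 ± 5.48 FPKM in vehicle, 116 ± 17.7 in vutiglabridin and 76.7 ± 16.2 in semaglutide, a difference between the drugs of 0.60 (adjusted p = 0.000217). Lrat, the enzyme that esterifies retinol for storage in stellate cells, did not pass in any comparison. It was at 6.04 ± 1.88, 5.30 ± 1.81 and 5.66 ± 1.92 FPKM in vehicle, vutiglabridin and semaglutide, and its difference from vehicle was −0.18 (95% interval −0.57 to 0.20) with vutiglabridin and −0.10 (−0.48 to 0.28) with semaglutide.

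**Figure D4:**
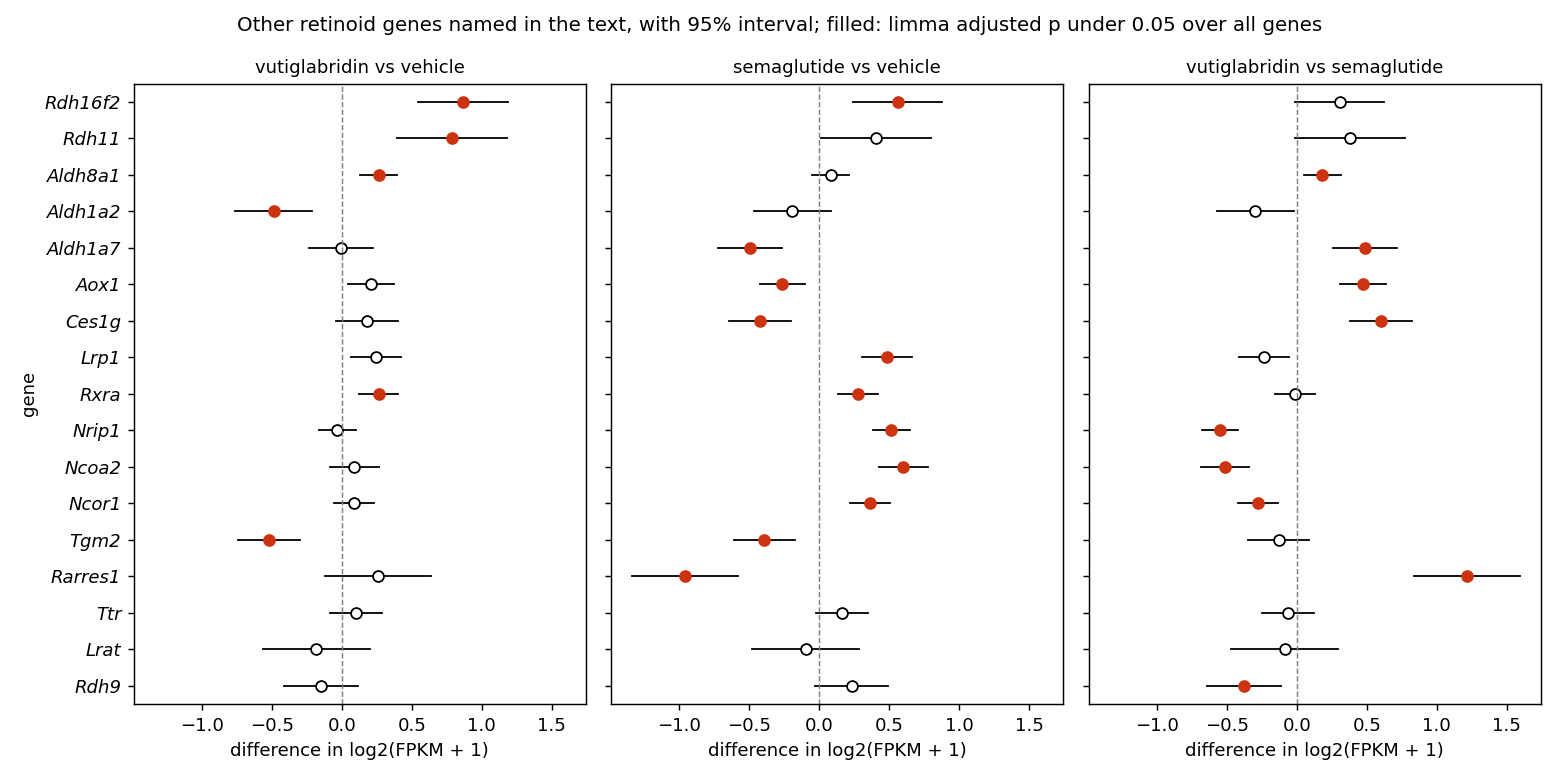
Differences of log2(FPKM + 1) with 95% intervals for 17 other retinoid genes named in the text, in 3 panels, one per comparison, with filled points past the adjusted threshold. Rdh16f2 and Rxra are filled on the high side for both drugs and Tgm2 on the low side, while Nrip1, Ncoa2 and Ncor1 are filled for semaglutide and not for vutiglabridin against vehicle.

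Some markers of liver cell types, among them cells that make or store retinoids, differed between the groups. The counts that follow stand against 15.3% of all tested genes called in either direction with vutiglabridin and 27.0% with semaglutide. Sums and counts of markers are on the FPKM scale as deposited and were not repeated under TPM. On that scale mean totals were 368614 in vutiglabridin and 330352 in vehicle, so a part of a higher sum can be scale. Hepatocyte markers, 10 of 10 tested, summed to 33513 to 42168 FPKM in vehicle, 37302 to 51927 in vutiglabridin and 36910 to 48799 in semaglutide, and 3 and 4 of them rose with the drugs. Most of this sum was Alb, with a median of 22094 FPKM in vehicle beside a median sum of 35907. Of 10 markers of pericentral hepatocytes, 6 rose with vutiglabridin, and 5 rose and 1 fell with semaglutide. Of 10 periportal markers, 4 rose with vutiglabridin, and 1 rose and 3 fell with semaglutide. Stellate cell markers, 17 of 17 tested, summed to 238 to 369 FPKM in vehicle, 172 to 271 in vutiglabridin and 174 to 233 in semaglutide. Of these, 6 fell with vutiglabridin, and 6 fell and 1 rose with semaglutide. Macrophage markers fell in 6 and 5 of 11. Cholangiocyte markers summed to 160 to 349 FPKM in vehicle, 71.8 to 199.9 in vutiglabridin and 95.9 to 298 in semaglutide. Most of this sum was 1 gene, Spp1. Its medians were 239, 149 and 207 FPKM in vehicle, vutiglabridin and semaglutide, beside median sums of 262, 166 and 234. Of 6 cholangiocyte markers tested, 3 fell with vutiglabridin (median −0.64) and 0 passed in either direction with semaglutide (median 0.04). Between the drugs 2 of these 6 were lower in vutiglabridin (median −0.62), where 12.6% of all tested genes were lower and 11.9% higher. Other lists differed between the drugs too. Higher in vutiglabridin were 4 of 10 periportal (median 0.35), 3 of 10 pericentral and 2 of 10 hepatocyte markers, with 0 lower in each list. Of 17 stellate cell markers 3 were lower and 1 higher, and of 11 macrophage markers 1 was lower. No marker of these lists was at 0 in all samples of a group. The part of these shifts in the differences of the retinoid genes was not tested, and in whole liver RNA fewer cells of a type and less RNA per cell cannot be told apart.

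Genome positions also bear on what was counted. On GRCm38 (GENCODE M21), Aldh1a1 lies on chromosome 19 at 20492715 to 20643465, Rbp4 at 38116629 to 38125281 and Cyp26a1 at 37697798 to 37701536 of the same chromosome, and Retsat on chromosome 6 at 72598475 to 72608425. Aldh1a1 overlaps C730002L08Rik and Gm6684 and Retsat overlaps Gm45053, all on the opposite strand. On the same strand, Rdh16 overlaps Rdh18-ps, Bco1 overlaps the pseudogene Gm20694 and Rara overlaps the small nuclear RNA gene Gm22061, which strand alone would not separate. The library kit keeps strand, but whether counting used it is not given in the sources used here. Rbp4, Cyp26a1 and Dhrs3 overlap no annotated gene.

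Within groups, 4 pairs of members were correlated over 8 samples each, which gave 12 relations. None passed, with the lowest exact permutation p at 0.135 for Pearson's r and 0.115 for Spearman's rho, both for Cyp26a1 with Dhrs3 in vehicle (r = 0.580, rho = 0.619, adjusted p = 0.690 and 0.751). Without the 2 samples farthest from the median of Cyp26a1, r was 0.540. The same pair gave r = 0.128 in vutiglabridin and −0.238 in semaglutide. For the other 3 pairs, Cyp26a1 with Aldh1a1, Rbp4 with Retsat and Rdh16 with Retsat, r lay between −0.0832 and 0.586. At 8 samples per group, only strong relations could pass.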

How the data were processed

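Liver RNA of 24 mouse samples was extracted with a Qiagen column kit and made into stranded Illumina mRNA libraries read as 101 base pairs from both ends, per the labels' protocols. The authors deposited 1 table of FPKM values per gene and sample. The submitters' processing notes list HISAT2, StringTie and DESeq2. Not given in the sources used here are their versions and roles, the genome build and any gene filter. All 14293 identifiers and symbols matched GENCODE M21 (GRCm38).

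The 11562 genes that reached 0.5 FPKM in 8 or more samples were fitted as log2(FPKM + 1) in 1 model of the 3 groups with limma 3.58.1 (R 4.3.3, mean trend, 2-sided). This scale understates changes of low genes. P-values were adjusted over all tested genes within a comparison, threshold 0.05. Correlations and permutation tests used SciPy 1.17.1, and the fit was tested on simulated data. Fragments per library were estimated from genes of up to 1500 exonic bases, whose low values lay within 0.2 of a whole fragment in every library. No replicates held identical values.

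The 8 members and all lists were chosen with earlier results of these data known. Named are the 8 members, of the wider list the 6 lowest p-values among called genes per comparison and fixed relatives, and the 2 genes most like each member. Alternatives changed the pseudocount (0.1, 0.5), the filter (none, or a mean of 1 FPKM or more), the scaling (quantile normalization, TPM, median centring) and the model (robust spread, weighted samples, a fit of just the 2 groups, a block by replicate number). Exact permutation tests and fits without each sample in turn were also run. Removal of GC and length trends (splines with 5 degrees of freedom) was added after seeing the data.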

Additional observations from a re-analysis of the deposited data

How the results depend on the processing

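Over 13 settings other than leaving out a sample, 280 of 312 member values kept their direction and side of the threshold, 10 lost a call, 11 gained one and 11 changed sign. With each sample left out in turn, 544 of 576 did. For vutiglabridin against vehicle, the count of members called (1) was 0 under TPM and under quantile normalization, 3 without GC and length trends and 1 to 3 with a sample left out. The wider list gave 4 calls under quantile normalization in place of 7, and all genes gave 2964 under TPM in place of 1770. For semaglutide against vehicle, 5 members were called without GC and length trends in place of 3, and 1 to 3 with a sample left out. Between the drugs, 3 were called under TPM, 2 under quantile normalization and 3 without GC and length trends in place of 1, and 1 to 2 with a sample left out. Differences that changed sign were those of Aldh1a1 (−0.0398 and −0.11) and Dhrs3 (−0.10 and −0.0546) for vutiglabridin against vehicle under TPM and quantile normalization, and Bco1 for semaglutide without GC and length trends (0.002). Between the drugs Rbp4 changed sign under TPM, quantile normalization and without these trends (−0.062, −0.18 and −0.068), Bco1 under TPM and without the trends (−0.0682 and −0.0636) and Rara under TPM (−0.0198). With a sample left out, Rbp4 ranged from −0.0075 to 0.0831 and Bco1 from −0.013 to 0.0625 between the drugs. None of these was called. The cause was not tested.

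Samples with the same replicate number deviated together in 11 of 24 pairs (r over 0.1, range −0.247 to 0.286). Samples with different numbers did so in 52 of 168 pairs. The median r was −0.0155 for the same number and −0.0124 for different numbers. Only 4 of 24 samples correlated best with their own number, so the numbers were not taken as pairs. With the replicate number as a block, 2 members were called for vutiglabridin (Cyp26a1 at adjusted p = 0.0357 beside Retsat), 2 for semaglutide and 1 between the drugs, and Aldh1a1 under semaglutide had adjusted p = 0.0604. Among the members, single values rested on the fewest fragments for Cyp26a1 and Bco1, as few as 30 and 50. Of the 500 genes nearest in mean level, 1 had a larger within-group SD than Cyp26a1. For Bco1 it was 219 of 500. The part of depth in the spread of these genes was not tested.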

Other observations

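Genes most like each member were sought over the 24 log2 values with group means removed, among 11561 candidates. Because the highest of many is taken, the values are descriptions without a p, and all 24 values share library and depth effects.

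Rdh16 was followed most closely by Psmd14 (r = 0.881) and Psmd1 (0.813), both subunits of the proteasome cap, with r of 0.889, 0.879 and 0.916 for Psmd14 within vehicle, vutiglabridin and semaglutide. Retsat, which acts on retinol, was followed by Dhrs4 (0.823), an enzyme that acts on retinal, and by Acadm (0.798), an enzyme of mitochondrial fatty acid oxidation. Dhrs4 was at 98.2, 102 and 97.4 FPKM on average in vehicle, vutiglabridin and semaglutide, so the 2 genes varied together within groups while their group differences were unlike.

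Rbp4 was followed by Atp5d (0.856), a subunit of ATP synthase, and Bckdha (0.852), of branched-chain amino acid breakdown. Rara was followed by Erp29 (0.848) and Gemin7 (0.830), Dhrs3 by Mrpl23 (0.801) and Serf2 (0.768), and Aldh1a1 by Osbp (0.80) and Tfg (0.776). For Gemin7, r was 0.275 within vehicle, against 0.956 within vutiglabridin and 0.893 within semaglutide. Bco1 had the lowest best value, 0.709 with Slc10a7, and 0.663 with Arhgef6. Within semaglutide alone these were 0.534 and 0.475. For Cyp26a1 the gene after Cyp26b1 was Slc2a9 (0.741), a urate carrier. Its r was 0.898, 0.853 and 0.394 within vehicle, vutiglabridin and semaglutide.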
